A study of Mus musculus with 45 samples.

Results

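The transcripts described here are those of the serine/arginine-rich splicing factors (SR genes, symbols Srsf followed by a number) and of the heterogeneous nuclear ribonucleoproteins (hnRNP genes, symbols starting with Hnrnp). They were chosen by symbol, with earlier results of these data known. They comprise 31 of the 53491 genes listed, 11 SR and 20 hnRNP genes, and 2 hnRNP symbols marked -ps were left out. Their decay and their levels were measured by SLAM-seq, in which cells take up the uridine analogue 4-thiouridine (4sU) and labelled RNA is then read as T-to-C conversions. Primary cortical cells of wild-type (WT) mouse embryos were taken at E11.5, E14.5 or E16.5, plated in a medium for neural progenitors, labelled with 100 uM 4sU for 20 h, and chased with 5 mM uridine for 0, 2, 4, 8 or 12 h. A stage had 3 replicate pools (A, B and C), made from the cortices of 7 embryos for E11.5 and of 2 embryos for the later stages, and every pool filled 5 wells, 1 for each chase time. Pools with the same letter at different stages were different embryos. The cultures therefore hold mixed cell types, without sorting, and all 45 libraries carry the label. Sets of values that follow each other without a stage name are in the order E11.5, E14.5, E16.5, and 3 values within a stage are replicates A, B and C.

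SR proteins bind pre-mRNA through RNA recognition motifs, and their arginine- and serine-rich domains, which SRPK and CLK kinases phosphorylate, help to recruit the spliceosome, often at exonic enhancers. hnRNP proteins coat nascent transcripts, and many of them repress exons, although members of both families can act in either direction and also take part in mRNA export, stability and translation. Many genes of both families limit their own level by splicing in a poison exon, an exon with a premature stop codon that sends the transcript to nonsense-mediated decay (NMD). In the developing cortex, alternative splicing changes broadly as progenitors give way to neurons.

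Such exons can be read from the annotation, and they matter here because every value below is summed over all exons of a gene, so that productive and NMD isoforms are counted together. In GENCODE vM21 (GRCm38), 9 of the 11 SR genes had an isoform of the NMD type, all but Srsf10 and Srsf12, as did 10 of the 20 hnRNP genes. Among 8809 protein-coding genes with a half-life at all 3 stages the share was 30.4%. In 7 genes the premature stop lay in an exon found in no coding isoform. These exons were at chr17:29039454-29039909 in Srsf3, chr4:131884276-131884482 in Srsf4, chr17:80204622-80205081 in Srsf7 and chr5:115328347-115328704 in Srsf9. Srsf11 had a pair of them, at chr3:158024123-158024231 (a) and chr3:158023243-158023359 (b), and the hnRNP exons were at chr7:28817335-28817404 in Hnrnpl and chr17:80044940-80045022 in Hnrnpll. The genes on the minus strand are Srsf7, Srsf11 and Hnrnpll. The 30 bases that end at each premature stop in the spliced isoform are shown 5′ to 3′ on the strand of the gene, with the stop codon in capitals.
Srsf3: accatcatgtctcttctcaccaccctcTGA
Srsf4: gtaacccggttgtctcatgccccagctTAG
Srsf7: aggtttcttcgtttgagtcagtcgcctTGA
Srsf9: cctgggttggagattacggattcacagTAG
Srsf11 (a): gctgaagttcttttccctggttcagccTGA
Srsf11 (b): gttgttcataaaacagcttttgaaagtTGA
Hnrnpl: tctttcagaactgtgctaactcactgtTGA
Hnrnpll: ctgaaacttcttgaaagaagcccacttTGA
For Srsf7 and for exon (a) of Srsf11 the run begins in the preceding exon of the isoform.

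Per library there were 15.9 to 43.9 reads (in units of 1e6) and 229 to 629 covered T positions (in the same units). The E11.5 libraries of 12 h stood apart, since Gm42418 took 29686 to 67623 cpm (counts of reads per 1e6 reads) there and at most 20507 cpm in any other library. Marker genes moved with stage. The summed level of 7 cortical progenitor markers was 9728 to 10254 cpm at E11.5 and 1347 to 1470 cpm at E16.5 (0 h), that of 7 neuron markers 2773 to 3324 and 7905 to 8338 cpm, that of 3 intermediate progenitor markers 148 to 208 and 128 to 154 cpm, and that of 5 interneuron markers 33.6 to 40.8 and 249 to 256 cpm. Markers of other cells were also highest at E11.5 for blood (6 erythroid genes, 1523 to 3301 cpm against 87.4 to 208 cpm) and for meninges (5 genes, 427 to 659 against 10.4 to 25.9 cpm). Over 5 markers each, endothelial genes summed to 4.42 to 5.75 and 2.85 to 4.17 cpm, microglial genes to 5.63 to 8.07 and 6.85 to 12.0 cpm and early glial genes to 148 to 156 and 353 to 407 cpm, and no marker was at 0 in all libraries of a stage. Their part in the results below was not tested, and in such bulk samples fewer cells of a type and less RNA per cell cannot be told apart.

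A half-life was fitted for each transcript in each replicate as 1 exponential through the conversion rates, scaled to the rate at 0 h. It was kept where more than 500 Ts were covered at all 5 times, R2 exceeded 0.6 and the value lay under 24 h in all 3 replicates of a stage. The median half-life of hnRNP transcripts was longer than that of SR transcripts at every stage and in every replicate. In the E11.5 pools the median over hnRNP genes was 5.81, 6.58 and 5.14 h, and that over SR genes 4.59, 5.20 and 4.23 h. The E14.5 pools gave 5.92, 5.99 and 6.40 h for hnRNP and 4.43, 4.61 and 4.80 h for SR genes, and the E16.5 pools 4.76, 4.92 and 4.99 h against 3.53, 3.65 and 3.78 h. Within a replicate the hnRNP median exceeded the SR median by 1.17 ± 0.237, 1.49 ± 0.105 and 1.24 ± 0.0312 h over the stages (mean ± SD, n = 3). No p is given for these differences, because genes are not replicates of a family.

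Fitted half-lives of both families were shorter at E16.5, as were those of the transcriptome. Label content differed as well, with a median 0 h conversion rate over all transcripts of 1.19, 1.13 and 1.85%. After subtraction of a background rate the all-transcript median was 3.42, 3.61 and 3.05 h, so the fall at E16.5 was smaller. How far label content shapes this fall was not tested. Without subtraction, the median over all measured transcripts was 4.43, 4.80 and 3.90 h, then 4.44, 4.46 and 4.78 h, then 3.39, 3.44 and 3.54 h, over 10858, 10686 and 11850 transcripts. SR genes lay close to it, with 7 of 10, 7 of 11 and 8 of 11 above the all-transcript median and a median percentile of 57.3, 51.5 and 54.5. The hnRNP genes lay above it in 20 of 20 cases at each stage, with a median percentile of 79.2, 79.5 and 78.8. By construction 50% of all transcripts lie above their median. The longest SR mean was that of Srsf5 at each stage, and it was exceeded by 12, 14 and 10 hnRNP genes. Every one of the 20 hnRNP genes exceeded the SR median at all 3 stages.

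**Figure D1:**
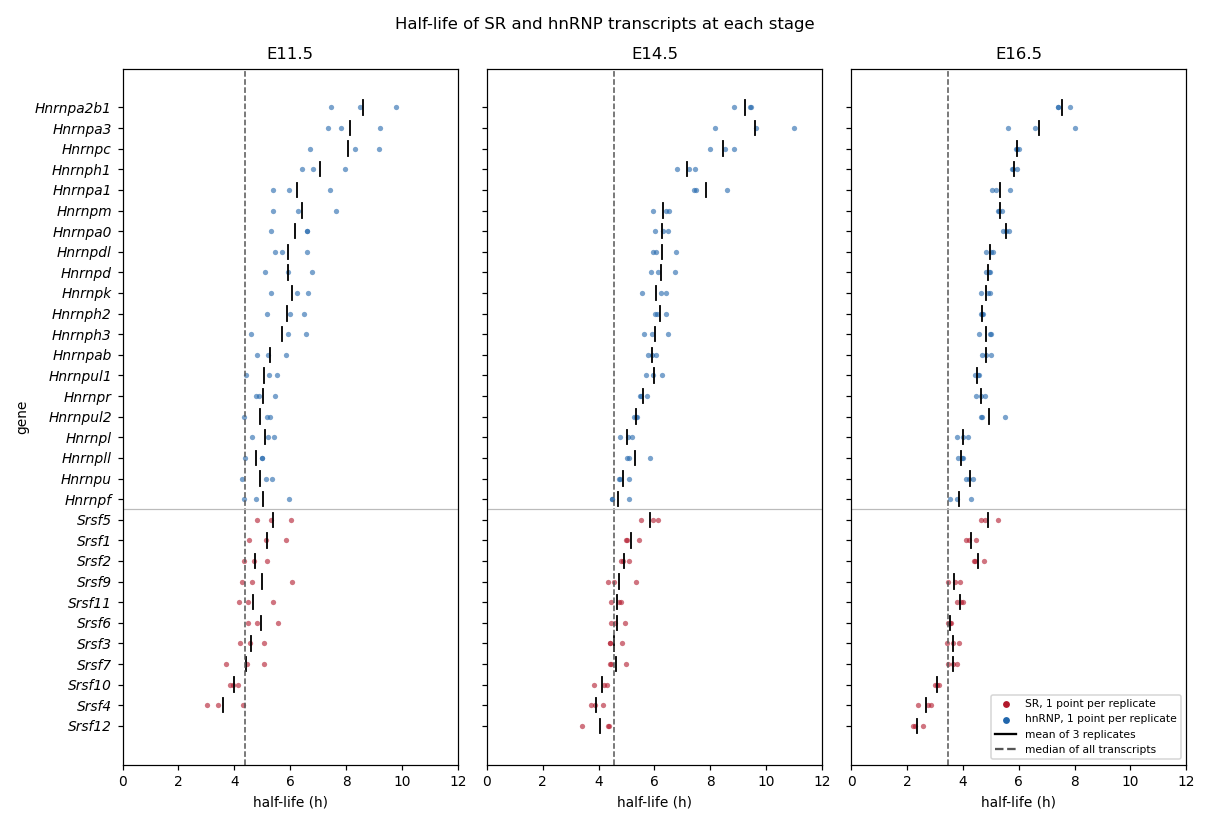
Half-life in hours (x axis) of each SR gene (red) and hnRNP gene (blue), 1 panel per stage, with 1 point per replicate, a black bar for the mean of 3 replicates and a dashed line for the median of all measured transcripts. All 20 hnRNP means lie to the right of the dashed line at each stage, while SR means lie on both sides of it, and Srsf12 has no value at E11.5.

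The longest-lived members were hnRNPs of the core particle. Hnrnpa2b1, which encodes the core proteins A2 and B1, had half-lives of 8.51, 9.79 and 7.47 h, then 8.84, 9.42 and 9.46 h, then 7.42, 7.82 and 7.42 h, at the 95.2, 95.4 and 95.9 percentile of all transcripts. Hnrnpa3, a paralog of the same group, gave 7.82, 9.21 and 7.34 h, then 8.15, 9.63 and 11.0 h, then 6.57, 5.62 and 8.01 h. Hnrnpc, the U-tract binding core protein, gave 8.31, 9.18 and 6.72 h, then 7.99, 8.53 and 8.84 h, then 5.94, 5.90 and 6.004 h. The replicates of Hnrnpa3 overlapped those of both others at every stage. Hnrnpa2b1 and Hnrnpc overlapped only at E11.5, and at E16.5 the lowest Hnrnpa2b1 value exceeded the highest of Hnrnpc by more than 1 h. Reads of Hnrnpa1 and Hnrnpa3 can also match processed copies elsewhere in the genome, and how such reads were treated is not given in the sources used here.

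The short end of the hnRNP family reached down to the middle of the transcriptome. Hnrnpf, a binder of G-rich runs, had half-lives of 4.76, 5.97 and 4.36 h, then 4.49, 5.08 and 4.48 h, then 3.53, 3.80 and 4.29 h. Hnrnpu, a chromatin- and scaffold-associated hnRNP, gave 5.13, 5.35 and 4.29 h, then 4.77, 4.73 and 5.08 h, then 4.13, 4.23 and 4.38 h. Hnrnpll, a paralog of the CA-repeat binder Hnrnpl, gave 5.00, 4.98 and 4.38 h, then 5.10, 5.03 and 5.83 h, then 4.00, 3.83 and 3.96 h. Replicates of these 3 genes overlapped at E11.5, and their percentiles lay between 52.0 (Hnrnpf at E14.5) and 68.0 (Hnrnpu at E16.5). The other 14 hnRNP genes had mean half-lives between those of Hnrnpl (4.69 h over the stages) and Hnrnph1 (6.69 h).

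Among SR genes, Srsf5 (SRp40) was the longest lived, with 6.02, 5.33 and 4.82 h, then 6.11, 5.52 and 5.95 h, then 4.81, 5.27 and 4.66 h. Srsf1 (SF2/ASF), the prototype of the family, followed with 5.12, 5.84 and 4.52 h, then 5.00, 5.00 and 5.44 h, then 4.12, 4.22 and 4.49 h. Srsf2 (SC35) gave 5.15, 4.69 and 4.35 h, then 4.82, 4.87 and 5.07 h, then 4.75, 4.41 and 4.45 h. Srsf5 lay above every Srsf1 and Srsf2 replicate at E14.5, but the 3 genes overlapped at E11.5.

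The shortest SR half-lives lay below the all-transcript median. Srsf4 (SRp75) had 3.43, 4.31 and 3.02 h, then 4.15, 3.89 and 3.74 h, then 2.40, 2.75 and 2.85 h, at the 26.1, 31.7 and 26.4 percentile. Srsf10, a family member that represses splicing when dephosphorylated, gave 3.96, 4.12 and 3.85 h, then 3.85, 4.18 and 4.30 h, then 3.09, 3.02 and 3.15 h. Srsf12, which lacked an accepted half-life at E11.5 because replicate B was fitted with an R2 of 0.497, gave 4.35, 3.40 and 4.38 h and then 2.28, 2.58 and 2.20 h at the later stages. Srsf12 was also the most thinly covered member, with as few as 1224 covered Ts in a library, whereas every other member had at least 8351. At E16.5 all replicates of Srsf10 exceeded those of Srsf4 and Srsf12, which overlapped each other.

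The rates behind these fits show where along the chase the families differed. At 4 h, SR transcripts kept a median of 54.1 ± 4.99%, 52.8 ± 4.14% and 44.7 ± 0.0555% of their 0 h rate (mean ± SD of 3 replicates). hnRNP transcripts kept 67.2 ± 4.85%, 69.0 ± 2.13% and 64.6 ± 2.07%, and all measured transcripts 45.3 ± 4.74%, 45.6 ± 2.02% and 38.3 ± 0.775%. Medians at 2 h were 91.8, 91.6 and 83.5% for SR and 92.9, 97.8 and 92.8% for hnRNP transcripts. All transcripts stood at 83.5, 88.4 and 78.3% then. Medians at 8 h were 20.9, 21.0 and 14.2% for SR and 29.2, 30.4 and 19.5% for hnRNP transcripts, beside 23.3, 23.9 and 14.7%. At 12 h the 3 sets lay closer to each other and SR transcripts lay below all transcripts in every replicate, with 17.3 ± 3.35%, 17.9 ± 1.79% and 10.5 ± 0.149% for SR, 19.9 ± 3.95%, 20.46 ± 1.50% and 12.2 ± 0.375% for hnRNP and 20.0 ± 3.64%, 20.7 ± 1.74% and 11.3 ± 0.105% for all transcripts. In counts of genes, 20 of 20 hnRNP genes lay above the all-transcript median at 4 h at each stage, 17, 17 and 20 at 8 h, and 8, 10 and 13 of 20 at 12 h. Of the SR genes, 8 of 10, 8 of 11 and 8 of 11 lay above it at 4 h, 2, 2 and 4 at 8 h, and 0, 2 and 1 at 12 h.

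**Figure D2:**
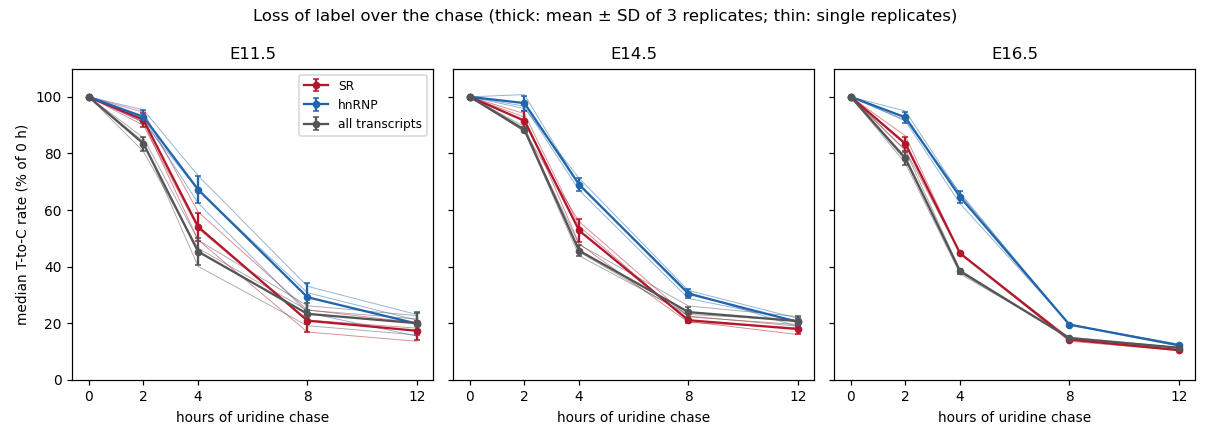
Median T-to-C conversion rate as a percentage of the 0 h rate (y axis) against hours of uridine chase (x axis) for SR transcripts (red), hnRNP transcripts (blue) and all measured transcripts (grey) at each stage; points and bars are the mean ± SD of 3 replicates and thin lines single replicates. hnRNP transcripts lie highest at 4 h, at 64.6 to 69.0%, and the 3 sets lie within 17.3 to 20.7% at 12 h at E11.5 and E14.5.

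The place of both families among all transcripts depended on the fit. A straight line through log rates, which weights the late times more, gave hnRNP medians of 4.69, 4.74 and 3.57 h and SR medians of 4.26, 4.30 and 3.33 h, so that hnRNP genes exceeded SR genes by 0.427, 0.445 and 0.238 h. In that fit the median percentile was 38.3, 38.2 and 49.6 for hnRNP and 14.6, 14.99 and 29.0 for SR genes, and 7, 7 and 8 of 20 hnRNP genes and 0 of 10, 2 of 11 and 1 of 11 SR genes lay above the all-transcript median. The order of the family medians, hnRNP above SR, held under each of the fits tried. The place of hnRNP genes above the typical transcript, and that of SR genes close to it, did not hold with the straight line. Without a filter on R2 or an upper limit, 6, 3 and 7 of 11 SR genes and 20, 19 and 20 of 20 hnRNP genes lay above that median.

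Other components of the splicing machinery were set beside them. The median percentile was 77.2, 78.3 and 79.8 at the 3 stages for 21 hnRNP-like RNA-binding genes (such as Pcbp1 and Sfpq) and 79.0, 81.7 and 76.6 for 32 core snRNP and U2 factors. It was 46.8, 38.1 and 47.2 for 16, 17 and 17 measured SR-related genes (such as Tra2b and Srrm2) and 24.6, 23.2 and 26.5 for 8 measured kinases of SR proteins. In the exponential fit, the hnRNP percentiles, near 79, were therefore close to those of the first 2 lists, and the SR percentiles lay between those of SR-related and hnRNP genes. The lists were not placed with the straight line, so whether this likeness depends on the fit was not tested. For 26 other splicing regulators, of which 23, 24 and 25 were measured, the percentile was 57.7, 61.9 and 66.9, and for 3 importins 53.4, 63.8 and 59.8.

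Relative half-lives of the members between stages were then compared. For each replicate, half-lives were turned into z-scores over the 9505 transcripts measured at all 3 stages, which removes the general shortening at E16.5, and tested with the moderated F-test of limma. None of the 30 members tested (all but Srsf12) was called at an adjusted p under 0.05, where 3.15% of all transcripts were called, and 6 had an unadjusted p under 0.05 in limma. The smallest adjusted p among members was 0.0799, for Hnrnpul2, with 5.16, 5.30 and 4.36 h, then 5.26, 5.33 and 5.39 h, then 4.69, 4.66 and 5.49 h. Without z-scores, on log2 hours, limma called 8 members (Hnrnpa1, Hnrnpc, Hnrnph2, Hnrnpl, Hnrnpll, Srsf4, Srsf6 and Srsf10), a setting in which 43.3% of all transcripts were called.

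Sequence features that the choice by symbol did not use were set beside those of the measured protein-coding genes. The 3′ UTR of the longest coding isoform had a median GC content of 36.4% in SR genes and 35.4% in hnRNP genes, against 43.8% over 8685 protein-coding genes. Its median length was 1468 and 886 bases, against 1176 bases. At least 1 ATTTA, the core of AU-rich elements, stood in the 3′ UTR of 9 of 11 SR and 17 of 20 hnRNP genes and in 71.6% of protein-coding genes, and the median density was 2.04, 1.95 and 1.47 per kb. Codons ending in G or C made up a median of 53.7% in SR genes and 47.2% in 19 hnRNP genes, against 59.2% in 8769 protein-coding genes. Within the hnRNP family, the 10 genes with an annotated NMD isoform had median half-lives of 5.68, 5.93 and 4.84 h at the 3 stages and the 10 without 5.98, 6.22 and 5.16 h. Among SR genes the order was the opposite, at 4.74, 4.68 and 3.79 h for the 9 genes with such an isoform and 3.98, 4.08 and 2.72 h for those without, which were Srsf10 alone at E11.5 and Srsf10 and Srsf12 later. Protein-coding genes followed the SR order, at 4.44, 4.68 and 3.54 h with and 4.24, 4.41 and 3.28 h without one. These are descriptions of the annotation with no test.

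Levels of the members were compared at 0 h of chase, which asks how the splicing factor complement of the cultures changed between stages. Per kb of exon, the highest level among SR genes was that of Srsf2, at 162, 112 and 107 cpm per kb, and the lowest that of Srsf12, at 1.22, 3.38 and 5.88 cpm per kb. Among hnRNP genes Hnrnpab, a regulator of mRNA processing and transport, was highest with 404, 351 and 314 cpm per kb and Hnrnpr lowest with 6.93, 6.96 and 6.93 cpm per kb. The summed level of the 11 SR genes was 2442, 2607 and 2396 cpm, then 2099, 2161 and 2113 cpm, then 1856, 1820 and 1765 cpm. The summed level of the 20 hnRNP genes was 8425, 9033 and 8022 cpm, then 6940, 7272 and 7590 cpm, then 6801, 6765 and 6577 cpm. Stages did not overlap in either sum.

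Tested gene by gene with edgeR on covered-T counts, 22 of the 31 members were lower at E16.5 than at E11.5 at an adjusted p under 0.05, 9 of 11 SR and 13 of 20 hnRNP genes, where 33.1% of 18408 genes tested were lower. Only 1 member, Srsf12, was higher, where 31.4% of genes were. The falls were mostly small. With a log2 fold change beyond 1 as a further condition, 1 member was lower (Hnrnpf, against 14.6% of genes) and 1 higher (Srsf12, against 14.7%). The median log2 fold change was -0.33 over SR genes and -0.29 over hnRNP genes, beside -0.04 over all genes tested. Between E11.5 and E14.5, 11 members fell (23.5% of genes were lower) and 1 rose (25.1% were higher), and between E14.5 and E16.5, 13 fell (25.4%) and 2 rose, Srsf12 and Hnrnpa0 (24.1%).

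Srsf12, at chr4:33208991-33233340 and an SR gene of restricted tissue expression, was the exception in its family. It was measured at 3.76, 4.38 and 3.42 cpm, then 10.7, 9.89 and 11.4 cpm, then 18.5, 19.1 and 17.8 cpm, so that no stages overlapped. Its level rose by 1.45 ± 0.12 on the log2 scale (SE) from E11.5 to E14.5 and by 2.32 ± 0.12 from E11.5 to E16.5 (edgeR, adjusted p = 3.63e-09). The same gene had the shortest mean half-life of all members at E16.5, although its replicates overlapped those of Srsf4.

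Of the genes that fell, Hnrnpf, at chr6:117900324-117925622, went from 96.2, 91.2 and 87.0 cpm at E11.5 to 59.5, 63.2 and 67.2 cpm at E14.5 and 45.6, 41.3 and 39.3 cpm at E16.5, without overlap. The change from E11.5 to E16.5 was -1.06 ± 0.07 on the log2 scale (edgeR, adjusted p = 3.19e-08). Srsf9 had 68.6, 93.8 and 65.0 cpm at E11.5 and 46.5, 44.5 and 46.3 cpm at E16.5, and fell by 0.66 ± 0.12 on the log2 scale (adjusted p = 0.000262). Hnrnpm, which binds GU-rich sites, had 416, 398 and 370 cpm, then 230, 262 and 264 cpm, then 263, 248 and 233 cpm, with the drop before E14.5. It fell by 0.59 ± 0.07 on the log2 scale from E11.5 to E16.5 (adjusted p = 6.81e-06). Srsf6 (SRp55) and Hnrnpa2b1 fell by 0.56 ± 0.06 and 0.56 ± 0.07 on the log2 scale. Hnrnpm shares its strand and part of its locus with March2.

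The other 8 members were not called. Srsf11 gave 180, 170 and 172 cpm at E11.5 and 157, 158 and 154 cpm at E16.5, a log2 change of -0.09 ± 0.06 that was not called (adjusted p = 0.205). Hnrnpdl gave 400, 361 and 396 cpm and then 413, 400 and 385 cpm, and Hnrnph1 gave 617, 520 and 565 cpm and then 581, 607 and 561 cpm. Their log2 changes of 0.16 ± 0.08 and 0.10 ± 0.08 are the largest increases after Srsf12 and were not called, and their groups overlapped. Hnrnpr, Hnrnpul2, Hnrnpa0, Hnrnph3 and Hnrnpul1 were not called either, with log2 changes between -0.18 and 0.08. Calls for Hnrnpll, Srsf4, Hnrnpl, Hnrnpab, Hnrnpa3 and Srsf5 were lost under at least 1 alternative each, and that for Hnrnpll, with a log2 change of -0.18 ± 0.07, held in 4 of 15.

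**Figure D3:**
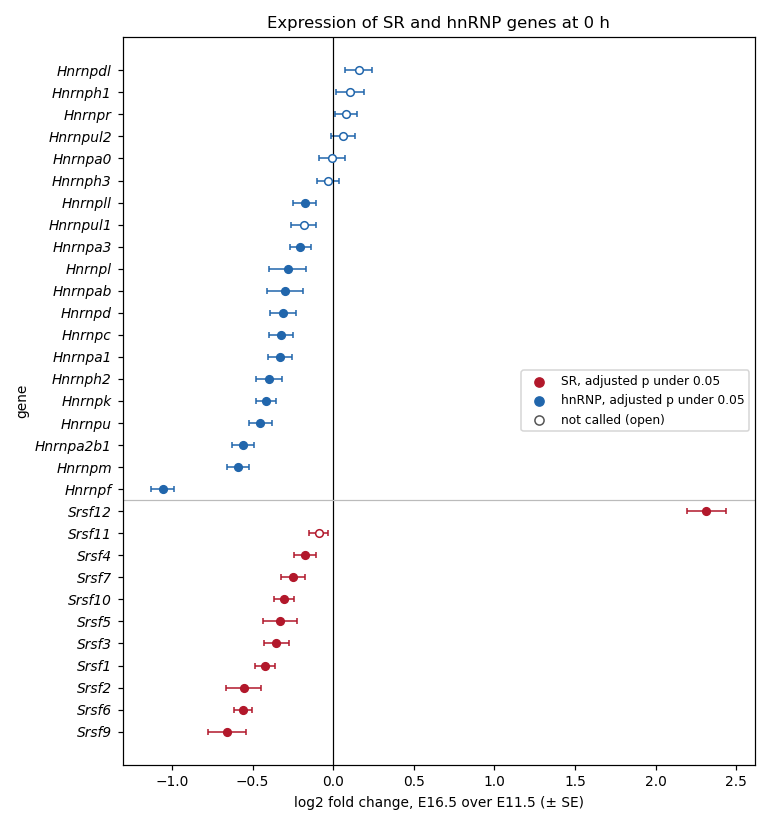
Log2 fold change of expression at 0 h, E16.5 over E11.5, with its standard error (x axis) for each SR gene (red) and hnRNP gene (blue); filled points passed an adjusted p under 0.05 in edgeR and open points did not, with 3 libraries per stage. Of 31 genes, 22 filled points lie below 0 and 1, Srsf12 at 2.32, above it.

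Related genes put these changes in context. From E11.5 to E16.5, 20 of 32 core snRNP and U2 factors fell and 1 rose, Snrpn, the neuronal paralog of Snrpb (log2 change 1.19 ± 0.11), while Prpf4 and Sf3a3 fell most, by 1.01 ± 0.08 and 0.80 ± 0.07 on the log2 scale. Of 21 hnRNP-like genes, 13 fell, led by Msi2 and Fubp3 (-1.66 ± 0.10 and -1.22 ± 0.07), and 3 rose, led by Rbmx (1.17 ± 0.07) and the cold-inducible Cirbp (0.54 ± 0.08). Of 17 SR-related genes 10 fell, led by Pnn and Srrm1 (-0.61 ± 0.07 each), and 4 rose, led by the neuronal microexon regulators Srrm3 (2.33 ± 0.12) and Srrm4 (0.59 ± 0.07). The list medians were -0.29, -0.29 and -0.24, near those of the SR and hnRNP genes.

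The remaining regulators moved in both directions. Of 26 other splicing regulators 13 rose and 10 fell. Rbfox1, a splicing factor of neurons, rose by 4.34 ± 0.09 and Khdrbs2 by 2.19 ± 0.11 on the log2 scale, while Ptbp1, which represses neuronal exons in progenitors, changed by -1.64 ± 0.07 and Mbnl3 by -2.04 ± 0.15. Of 8 tested SR protein kinases, 4 rose (Srpk2 by 0.46 ± 0.06 and Clk4 by 0.45 ± 0.11 most) and 2 fell (Prpf4b by 0.35 ± 0.08 and Srpk1 by 0.33 ± 0.08). Of the 3 importins, Tnpo1, which imports several hnRNP proteins, fell by 1.19 ± 0.07, Tnpo2 rose by 0.70 ± 0.07, and Tnpo3, the importin of SR proteins, was not called.

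The same libraries show how total levels moved during the chase. The main fit left out the pairing of wells from the same pool, and a fit with the pool as a replicate block is given where named. At 12 h against 0 h, 11 members were lower at the first stage (9.8% of 16559 genes tested were lower in edgeR), 9 at the second (10.4%) and 6 at the last (8.34%), and 1, 3 and 2 members were higher (17.4%, 11.2% and 12.5% of genes). With the pool as a replicate block, the number lower at E16.5 was 10. Hnrnph1, Hnrnpul1, Srsf3 and Srsf4 were then called too, and 2 members rather than 1 were higher at E11.5. Over all genes, the fit with this block also called more than the main fit, at 12 h of every stage and in both directions. The added calls are therefore not particular to the members. With limma on log2(cpm + 1), 20 members were lower at E11.5, as were 5439 of 16559 genes, with a median log2 change of -0.15 over all genes. The cpm of all listed genes there summed to 828747 to 878313 at 12 h, against a median of 916428 over all libraries. The cpm given below are not rescaled, while the log2 changes of edgeR follow normalization. At 12 h of E11.5, falls in cpm are therefore larger than the falls on the log2 scale of edgeR. At 2 h, 1 member was called in either direction at the first stage (3.3% of genes), 2 at the second (4.08%) and 0 at the last (3.07%), where 4 had an unadjusted p under 0.05 in edgeR. At 4 h the counts were 4 (11.6%), 5 (11.8%) and 6 (9.6%), and at 8 h they were 11 (18.6%), 9 (11.6%) and 7 (14.2%). All times are compared with the same 0 h libraries, so these counts are not independent.

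Srsf5 showed the largest 12 h fall of all members at E14.5 and E16.5, and the largest after Hnrnpdl at E11.5. At E11.5 it went from 92.3, 69.2 and 80.1 cpm at 0 h to 59.6, 58.4 and 43.6 cpm at 8 h and 56.0, 43.3 and 39.2 cpm at 12 h. At E14.5 the values were 65.2, 72.1 and 85.9 cpm, then 36.1, 35.8 and 33.1 cpm, then 34.7, 40.8 and 38.2 cpm. At E16.5 they were 60.7, 62.2 and 60.9 cpm, then 31.9, 35.3 and 32.0 cpm, then 36.9, 33.3 and 36.0 cpm. Groups of 0 h and 12 h did not overlap at any stage, and the log2 change at 12 h was -0.58 ± 0.12, -0.94 ± 0.12 and -0.74 ± 0.12 (edgeR, adjusted p = 0.000267, 3.65e-07 and 2.13e-05). The fall came after 4 h at E11.5 and E14.5, where 4 h values were 89.9, 68.0 and 79.4 cpm and 69.9, 70.1 and 68.6 cpm, whereas at E16.5 the 4 h values of 47.4, 43.8 and 42.8 cpm already lay below all 0 h values.

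Hnrnpdl, a paralog of the AU-rich element binder Hnrnpd, fell as well. It had 400, 361 and 396 cpm at 0 h and 218, 189 and 179 cpm at 12 h at E11.5. These were 369, 348 and 440 cpm against 200.6, 216 and 221 cpm at E14.5, and 413, 400 and 385 cpm against 300, 277 and 270 cpm for the last stage. The log2 changes were -0.77 ± 0.08, -0.86 ± 0.08 and -0.45 ± 0.08 (edgeR, adjusted p = 1.97e-09, 3.57e-10 and 5.60e-05), without overlap at any stage. Srsf6 went from 276, 286 and 266 cpm to 200, 182 and 168 cpm, then from 241, 252 and 222 cpm to 168, 178 and 177 cpm, and then from 181, 179 and 177 cpm to 145, 133 and 138 cpm. Its log2 changes were -0.38 ± 0.06, -0.45 ± 0.06 and -0.32 ± 0.06, also without overlap. Hnrnpa1 (-0.33, -0.42 and -0.27) and Hnrnpa3 (-0.47, -0.46 and -0.25) were called lower at 12 h at each stage too.

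Increases were smaller. Hnrnpm had 230, 262 and 264 cpm at 0 h and 316, 338 and 311 cpm at 12 h at E14.5, and 263, 248 and 233 cpm and 293, 292 and 297 cpm at E16.5, rising by 0.35 ± 0.06 and 0.30 ± 0.06 on the log2 scale (edgeR, adjusted p = 7.65e-05 and 0.000676). At E11.5 it had 416, 398 and 370 cpm and 399, 355 and 330 cpm, which overlapped, with a log2 change of 0.08 ± 0.06 after normalization. Srsf12 had 18.5, 19.1 and 17.8 cpm and 19.5, 20.4 and 21.3 cpm at E16.5, a log2 change of 0.22 ± 0.12 that was not called, and it rose at E11.5 by 0.63 ± 0.12 (adjusted p = 0.000108). Hnrnpf had 45.6, 41.3 and 39.3 cpm and 43.2, 45.9 and 46.0 cpm at E16.5, where it was called (0.16 ± 0.06, adjusted p = 0.0388) although its groups overlapped, and the call held in 8 of 15 alternatives.

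Some members moved early in the chase. Srsf11 had 157, 158 and 154 cpm at 0 h, 196, 192 and 190 cpm at 4 h and 155, 157 and 156 cpm at 12 h at E16.5. Its 4 h rise was 0.33 ± 0.07, 0.36 ± 0.07 and 0.33 ± 0.07 on the log2 scale over the stages (edgeR, adjusted p = 0.00257, 0.00104 and 0.00256), and its 12 h changes, at most 0.07 in size, were not called. Srsf7, an SR protein that also acts in mRNA export, had 254, 235 and 257 cpm at 0 h and 191, 184 and 216 cpm at 2 h at E11.5, and 253, 236 and 291 cpm and 188, 186 and 230 cpm at E14.5. It fell by 0.33 ± 0.08 and 0.34 ± 0.08 on the log2 scale at 2 h, without overlap, while at 8 h its changes of -0.03 and -0.17 were not called. At 12 h it was lower again at E14.5 (-0.34 ± 0.08, adjusted p = 0.00249) and not called at E11.5 (-0.16 ± 0.08, adjusted p = 0.155), where it was called with the pool as a replicate block (-0.16 ± 0.05, adjusted p = 0.0160). With that block its 12 h change was also higher at E16.5 than at E14.5 (0.38 ± 0.07, adjusted p = 0.00128). Srsf7 and Srsf11, named here after their values were seen, carry annotated NMD exons, and 9 of 11 SR genes have an annotated NMD isoform. Srsf10, which has no such isoform, was also called lower at 2 h at E14.5 (edgeR, adjusted p = 0.0094). Isoforms were not separated in the counts, and a part of NMD in these changes was not tested.

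**Figure D4:**
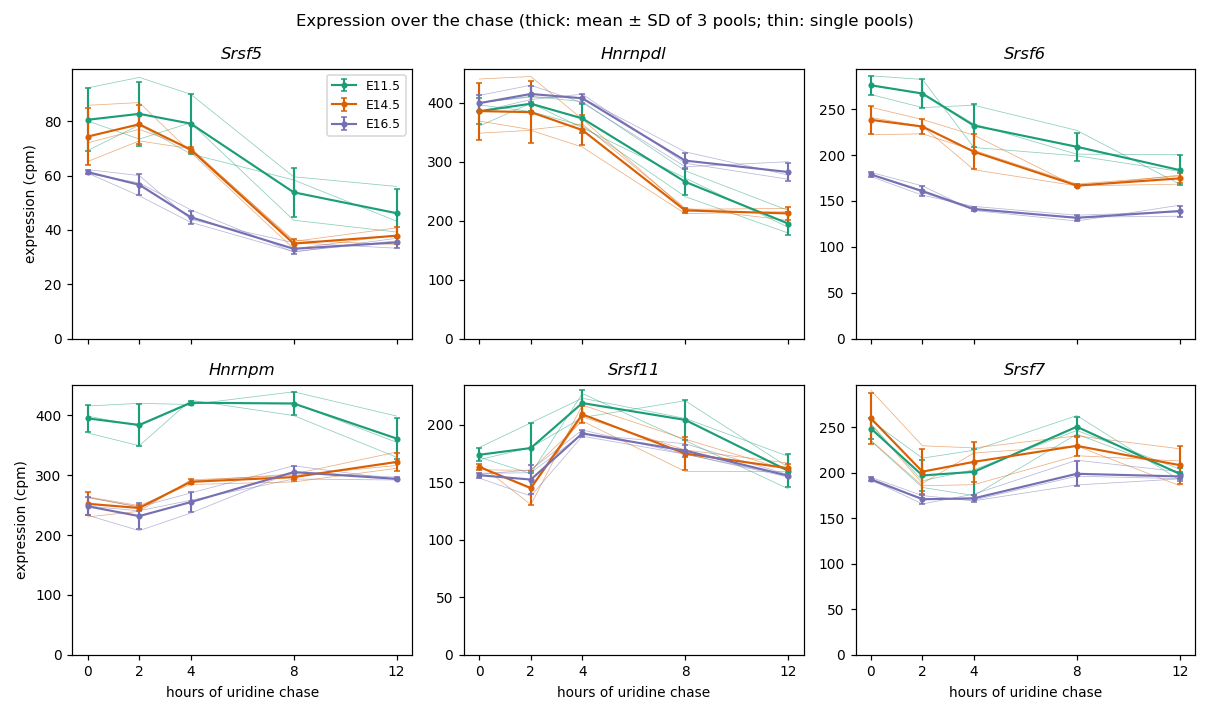
Expression in cpm (y axis, from 0) over hours of uridine chase (x axis) for 6 members at E11.5 (green), E14.5 (orange) and E16.5 (purple); points and bars are the mean ± SD of 3 pools and thin lines single pools. Srsf5, Hnrnpdl and Srsf6 are lower at 12 h than at 0 h at each stage, Hnrnpm is higher at E14.5 and E16.5, and Srsf11 peaks at 4 h.

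Whether the 12 h change differed between stages was tested as an interaction in edgeR. Comparing E16.5 with E11.5, 1 of 31 members was called (8.9% of genes), Hnrnpk, a binder of C-rich sequences, and 0 members were called for E14.5 against E11.5 (6.07%) or E16.5 against E14.5 (0.906%), with 6 and 5 members at an unadjusted p under 0.05. Hnrnpk had 612, 610 and 603 cpm at 0 h and 456, 455 and 432 cpm at 12 h at E11.5, and 431, 441 and 424 cpm and 428, 452 and 419 cpm at E16.5. After normalization, its 12 h change was -0.24 ± 0.06 at E11.5 and 0.03 ± 0.06 at E16.5 on the log2 scale, a difference of 0.27 ± 0.09 (adjusted p = 0.0434) that held in 6 of 15 alternatives. These included leaving out any replicate of E14.5, a stage outside this comparison. Without any replicate of E11.5 or E16.5 the call was lost. Those settings called 296 to 532 of all genes higher, against 575 in the main fit. The 12 h libraries of E11.5 used here are those high in Gm42418. With the pool as a replicate block, 5, 3 and 2 members were called for the differences between stages. In that fit 1367, 692 and 702 of 16559 genes were called higher and 1832, 1660 and 347 lower. Among these members, Hnrnpdl had a 12 h change higher at E16.5 than at E11.5 by 0.32 ± 0.08 (edgeR, adjusted p = 0.00449). Against E14.5 it was higher by 0.40 ± 0.08 (edgeR, adjusted p = 0.00173). Limma on log2(cpm + 1), in which cpm were not rescaled, called 7, 8 and 0 members. It called 2318, 2036 and 51 of 16559 genes higher and 465, 369 and 52 lower. Mir7-1 lies within the span of Hnrnpk on the same strand, and whether the exons of the 2 genes share bases was not examined.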

How the data were processed

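The members and gene lists were chosen with earlier results of these data known. The authors aligned reads with SlamDunk to mm10 and summed over the exons of GENCODE vM24. They deposited covered Ts as raw counts per gene, conversion rates as a fraction of covered Ts (printed as percentages), and expression in CPM over all reads of a library. The 9 tables gave 45 libraries. Depth (15.9 to 43.9 reads per library, in units of 1e6) was recovered from the deposited CPM values, 100% of which were whole reads to within 0.01. The authors' half-lives, R2 values and mean columns (36 columns) were not used.

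Half-lives were refitted by least squares of exp(-kx). Relative half-lives were tested with limma 3.58.1 and covered-T counts with edgeR 4.0.16 (TMM, quasi-likelihood F-test, more than 10 counts in all libraries of the fit, Benjamini-Hochberg over all genes). Since a read with several Ts enters the edgeR counts several times, recovered reads were tried as an alternative, as were DESeq2 1.42.0 and limma on log2(cpm + 1). R 4.3.3, Python 3.11.15, numpy 2.4.6, pandas 2.3.3 and matplotlib 3.10.9 were used, and the scripts were tested on simulated data.

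Annotation came from GENCODE vM21 (GRCm38, the same build as mm10), in which all 31 members were found, and sequences were read from its transcripts. Whether counting used strand is not given in the sources used here, so members may share reads with genes on the other strand, protein-coding ones for Hnrnpab, Hnrnph3, Hnrnpk, Hnrnpu and Srsf2 and other kinds for Hnrnpd, Hnrnpf, Hnrnpl, Hnrnpll, Hnrnpr, Srsf1 and Srsf4. The libraries of a letter within a stage came from 1 pool, and their deviations at 0 h and 12 h correlated at 0.140 to 0.557. Letters did not pair stages, with correlations from -0.150 to 0.144. By rule, every member could be named, with all replicates for the 3 longest and 3 shortest half-lives of each family and the 3 largest rises and falls between E11.5 and E16.5 and over the chase at E16.5, and up to 2 rises and 2 falls from each related list.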

Additional observations from a re-analysis of the deposited data

Results flagged for a closer look

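The 12 h change of Hnrnpk differed between stages by the interaction test of edgeR: it was higher at E16.5 than at E11.5 by 0.27 on the log2 scale (adjusted p = 0.0434). Over the 15 alternatives the adjusted p ranged from 0.000936 to 0.185. The call was lost whichever replicate of E11.5 or E16.5 was left out. Groups of 3 replicates are too small for the test for single outlying samples, and no such test was made.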

How the results depend on the processing

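Without z-scores limma called 8 members for half-life over the stages, and 0 under every other setting, the replicate block included. That block called 0 of all 9505 transcripts, and leaving out 1 replicate of E16.5 called 0.0316 to 0.284% of them. In these settings a count of 0 members therefore says little about the members. With the straight line through log rates, the hnRNP minus SR difference was 0.427, 0.445 and 0.238 h over the 3 stages in order, with hnRNP medians of 4.69, 4.74 and 3.57 h and, at the later stages, SR medians of 4.30 and 3.33 h. With background conversions subtracted, SR medians were 3.77, 3.70 and 3.24 h, hnRNP medians 4.74, 5.00 and 4.41 h, and the difference at E14.5 and E16.5 1.30 and 1.17 h. Both together, an alternative chosen after seeing the data, gave 2.72, 2.77 and 2.42 h for SR, 3.15, 3.26 and 2.72 h for hnRNP, and differences of 0.427, 0.494 and 0.303 h. Leaving out 1 replicate gave differences of 1.06 to 1.30, 1.44 to 1.54 and 1.22 to 1.25 h.

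At 0 h, 2 members rather than 1 were higher at E14.5 than at E11.5 on recovered reads and without a filter on low counts. Leaving out 1 replicate gave 1 to 2 higher there, 8 to 14 lower and 2 to 4 higher between E14.5 and E16.5, and 1 to 2 higher between E11.5 and E16.5. The replicate letter as a block (replicate block) moved no count of calls at 0 h by over 1.5 times. At 12 h of chase, limma on log2(cpm + 1) called 20 members lower at E11.5, and 5439 of 16559 genes. Recovered reads and the pool as a replicate block gave 2 higher at E11.5, and the pool block 10 lower at E16.5. The pool block also called more of all genes than the main fit in both comparisons. Recovered reads, no filter and limma each gave 1 higher at E16.5. Leaving out 1 replicate gave 1 to 2 higher at E11.5, 1 to 3 higher at E14.5, and 3 to 8 lower and 1 to 2 higher at E16.5. The libraries behind these values were replicate C of E11.5 or B of E14.5 (2 higher at E14.5), C of E16.5 (8 lower) and C of E14.5 (4 higher) between the later stages, C of E14.5 (2 higher between E11.5 and E16.5, and at 12 h of E11.5), B or C of E14.5 (1 higher at 12 h of E14.5), B of E16.5 (3 lower, without Hnrnpa1, Hnrnpa3 and Hnrnpd), and A of E11.5, B of E14.5, or B or C of E16.5 (1 higher at 12 h of E16.5). Leaving out a replicate changed the calls over all genes too. Without A, B or C of E16.5, 746, 714 and 680 genes were lower at 12 h of E16.5, against 1381 in the main fit. Without B or C of E14.5, 1170 and 1259 were higher at 12 h of E14.5, against 1847. Between the later stages at 0 h, 4095 were lower without C of E16.5 (4682 in the main fit), and 4052 higher without C of E14.5 (4433). The family median half-lives and their differences otherwise stayed within their replicate SD, and the counts of members called at 0 h, at 12 h and for relative half-life within 1.5 times. SR genes above the all-transcript median, 7, 7 and 8, were 0, 2 and 1 with the straight line, 0, 0 and 1 with both changes, and 3 at E14.5 without an R2 filter. hnRNP genes above it, 20 at each stage, were 7, 7 and 8 with the straight line and 8, 7 and 11 with both changes. Background was taken as percentile 1 of the 12 h rates in the same labelled libraries, and was 0.108 to 0.138% over the replicates. Median rates at 12 h were 0.198, 0.203 and 0.177% for SR, 0.222, 0.219 and 0.204% for hnRNP and 0.228, 0.229 and 0.205% for all transcripts. Rates this close to background measure late decay least well.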
